A study of Mus musculus with 12 samples.

Results

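Cluster 5 is a macrophage cluster of MC38 tumors, marked by Ccr2, C3, Clec5a, Tarm1 and Cxcl9. Its members were the cells that carry cluster number 5 in the authors' own clustering, 12064 of 93126 cells (12.95%) and 17.7% of the 68059 cells in the 10 clusters with macrophage markers. MC38 is a mouse colon carcinoma line of C57BL/6J (B6) origin, and was grown under the skin of female mice aged 8 to 12 weeks. Hosts were F1 animals (CCF1) of B6 crossed with a Collaborative Cross (CC) strain, an inbred line that mixes the genomes of several founder strains, or B6 animals. Mice with tumors of 75 to 110 mm3 were given 200 µg of either a PD-1 blocking antibody (aPD1) or an isotype control. The tumors were taken 48 h later and sorted to a mix of 90% CD45+ and 10% CD45- cells.

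Transcripts were counted as UMIs (unique molecular identifiers, 1 per captured transcript) in 12 pooled libraries of 4 hashtagged tumors each. Responder strains were CC075, CC002 and CC001 CCF1, with 10 isotype and 10 aPD1 tumors, and non-responder strains CC080, CC079 and CC036 CCF1, with 9 isotype and 9 aPD1 tumors. This class was assigned by the study from tumor growth in other animals, and another 10 tumors of B6 and CC007 CCF1 hosts carry no class. Each class is therefore a set of 3 strains, so a class difference and any other difference between those strains cannot be told apart. Treatment and the hashtag antibody cannot be told apart either, since each hashtag marked tumors of 1 treatment.

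Monocytes enter tumors from the blood through the chemokine receptor CCR2 and mature there into macrophages. The path they take depends on local signals: interferon gamma (IFN-γ), made by T and NK cells, drives a program of antigen presentation, guanylate-binding proteins and the T cell chemokine CXCL9. Other signals lead to immediate early genes, inflammatory cytokines or arginase and osteopontin.

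Cluster 5 held 3 to 507 cells per tumor (median 266.5) and 47 of 48 tumors gave at least 20 cells. A cell had a median of 2599.5 UMIs and 1259 genes, against 3881 UMIs in cluster 2 and 4383 in cluster 26, the clusters with the most similar mean profiles (Spearman 0.967 and 0.956 over 8012 genes, as a description). Of its cells, 11.0% carried a barcode also present in another library, as did 10.9% of all cells. Summed counts per tumor ran from 2960 to 1690304 UMIs (median 853108). Levels are given as CPM, the summed cluster 5 UMIs of 1 tumor scaled to the same total in every tumor, so that the tumor is the replicate.

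The cells carried macrophage markers, but several at lower levels than the other macrophages. With each cell thinned to 1000 UMIs, 90.7% of cells had a UMI of Lyz2, the myeloid lysozyme, and 77.5% one of H2-Aa, a chain of MHC class II. C1qa, a complement subunit gene of mature macrophages, had one in 39.3% and Adgre1, which encodes F4/80, in 10.7%, against 37.4 and 9.40% in cluster 2, 85.1 and 20.97% in cluster 26 and 3.04 and 0.525% in the T/NK clusters. The 12 macrophage identity genes had a median ratio of 0.786 to the other macrophages, and 6 of them were lower in at least 90% of tumors. Any Cd3 gene had a UMI in 0.325% of thinned cells, and the summed T and NK cell markers reached 26.3 CPM at most in a tumor, against a lowest value of 3194 CPM in the T/NK clusters.

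All 5 markers were higher in cluster 5 than in the other macrophages, most of all Ccr2, the CCL2 receptor of monocytes (chromosome 9, 124101950 to 124113557, GRCm38). Its level was 675 ± 147 CPM (SD, n = 47 tumors) against 391 ± 121, and it was higher in 45 of 47 tumors. Clec5a, an activating C-type lectin (chromosome 6, 40574894 to 40585821), stood at 202 ± 62.6 against 123 ± 36.4 CPM. Tarm1, a receptor of activated myeloid cells (chromosome 7, 3486500 to 3502624), stood at 58.6 ± 22.8 against 37.1 ± 18.9 CPM. The ratios were 1.73, 1.63 and 1.58.

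C3, the central complement protein (chromosome 17, 57203970 to 57228136), had 161 ± 75.1 CPM against 110 ± 64.9. Cxcl9, the CXCR3 ligand that attracts T cells (chromosome 5, 92321347 to 92328079), had 1229 ± 675 CPM against 880 ± 523. Among the 10 macrophage clusters, cluster 5 ranked first for Ccr2, C3 and Clec5a, and second for Tarm1, behind cluster 4, and for Cxcl9, behind cluster 21. Against cluster 2 the ratios were smaller, 1.26 for Ccr2, 1.12 for C3, 1.19 for Clec5a, 1.10 for Tarm1 and 1.47 for Cxcl9. Against cluster 26 they were larger for 4 of the 5 markers, 2.37 for Ccr2, 1.94 for C3, 2.12 for Clec5a and 3.03 for Tarm1, and smaller for Cxcl9, at 1.09. The clusters were made from these genes, so the levels are a description without a test.

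Not every cell carried the markers. In unthinned cells, 71.9% had a UMI of Ccr2, 37.3% of Clec5a, 36.5% of Cxcl9, 29.5% of C3 and 14.95% of Tarm1. After thinning, which left 10458 cells and dropped 1606 shallower ones, the shares were 48.1, 16.7, 29.3, 15.1 and 5.41%. In thinned T/NK cells (median 1918 UMIs before thinning), the same shares were 11.1, 0.412, 2.02, 0.432 and 0.124%, so all but Ccr2, which T cells also express, were near the background there. Thinned cells with a Cxcl9 UMI had C3 in 22.8% and H2-Aa in 86.8%, against 11.9 and 73.6% of cells without. Spp1, which encodes osteopontin, showed the opposite order, with 26.2 against 39.0%. These shares pool the cells of all tumors, which differed in their levels of Cxcl9 and Spp1. Within the 39 tumors with at least 20 thinned cells of each kind, the share with Spp1 was lower among cells with Cxcl9 in 37 (median difference −6.76 points). The shares with C3 and H2-Aa were higher in 38 each (median differences 9.27 and 7.31 points).

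The genes that set the cluster apart most from the other macrophages were those at lower levels in it. Cxcl2, a neutrophil chemokine, was 8.67-fold lower than in the other macrophages (115 ± 124 against 995 ± 460 CPM) and lower in all 47 tumors. Ccl4, an inflammatory chemokine, stood at 101 against 681 CPM. The immediate early transcription factors Egr1 and Fosb stood at 59.8 against 340 and at 75.2 against 447 CPM. Atf3, a stress-induced transcription factor, stood at 151 against 850 CPM, and Rsad2, an antiviral interferon target, at 13.97 against 111 CPM. Each of these was lower in all 47 tumors.

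The same held for whole groups of genes. Immediate early and stress genes had a median ratio of 0.34, with 11 of 12 members at least 1.5-fold lower, against a median of 1.03 over the 6163 genes of at least 20 CPM, of which 368 were that much lower and 74 that much higher. Fos, a subunit of the transcription factor AP-1, had a level of 599 ± 198 against 2401 ± 468 CPM, and the phosphatase gene Dusp1 334 ± 162 against 1587 ± 447 CPM. Inflammatory cytokines had a median ratio of 0.46 (10 of 12 members lower), among them Il1b with 523 ± 235 against 1272 ± 585 CPM. Cell cycle genes (0.45, 11 of 16 lower) and markers of resident macrophages (0.52, 4 of 7 lower) were also below, as was Folr2 with 4.89 against 23.3 CPM. Not all of these gaps held against the nearest clusters. Resident markers had a median ratio of 1.06 to cluster 2, with 0 of 5 members lower. Inflammatory cytokines had one of 0.90 to cluster 26, with 4 of 11 lower and 3 higher. The type I interferon list, which holds Rsad2, had medians of 0.78 to the other macrophages, 1.01 to cluster 2 and 1.15 to cluster 26.

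Against cluster 2, its nearest neighbour, the contrast was again the immediate early and inflammatory genes. The paper states that tumors were frozen, thawed and digested with enzyme, and the part of this handling in these levels was not tested. Thinned cells with a Fos UMI made up 25.3% of cluster 5 and 88.7% of cluster 2, those with Dusp1 14.9 and 80.1%, and those with Cxcl2 3.74 and 35.9%. Immediate early genes had a median ratio of 0.24 to cluster 2 and cell cycle genes one of 1.11. Against cluster 26 the ratio of the monocyte list was 2.66, with Plac8, a gene of recently arrived monocytes, at 614 against 78.0 CPM. Ccl8, a monocyte chemokine, went the other way with 34.9 against 296 CPM. The monocyte list was not higher against cluster 2, with a median ratio of 0.915 and 0 of 11 members at least 1.5-fold higher and 2 lower. To the other macrophages its median ratio was 1.12, with 2 of 12 members higher and 3 lower.

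Genes higher in cluster 5 in all 47 tumors included Ciita, the master regulator of MHC class II transcription, with 117 ± 41.0 against 60.7 ± 28.2 CPM. Camk1d, a calcium-dependent kinase gene, stood at 2274 against 1335 CPM and S100a11, a calcium-binding protein gene, at 2076 against 1264 CPM. The amidase gene Naaa stood at 231 against 143 CPM, and AA467197, which hosts a microRNA, at 848 against 468 CPM. MHC class II genes had a median ratio of 1.30 and the IFN-γ response list one of 1.04, close to that of all genes. Against cluster 2 the MHC class II median was 0.934 with no member at least 1.5-fold higher. Immunoglobulin and globin genes also ranked among the highest ratios, but these came from very few cells: 1524 of the 1525 Igkv6-25 UMIs lay in 1 cell, and 5 cells held 98.8% of Igkc and 98.1% of Hbb-bs UMIs.

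**Figure D1:**
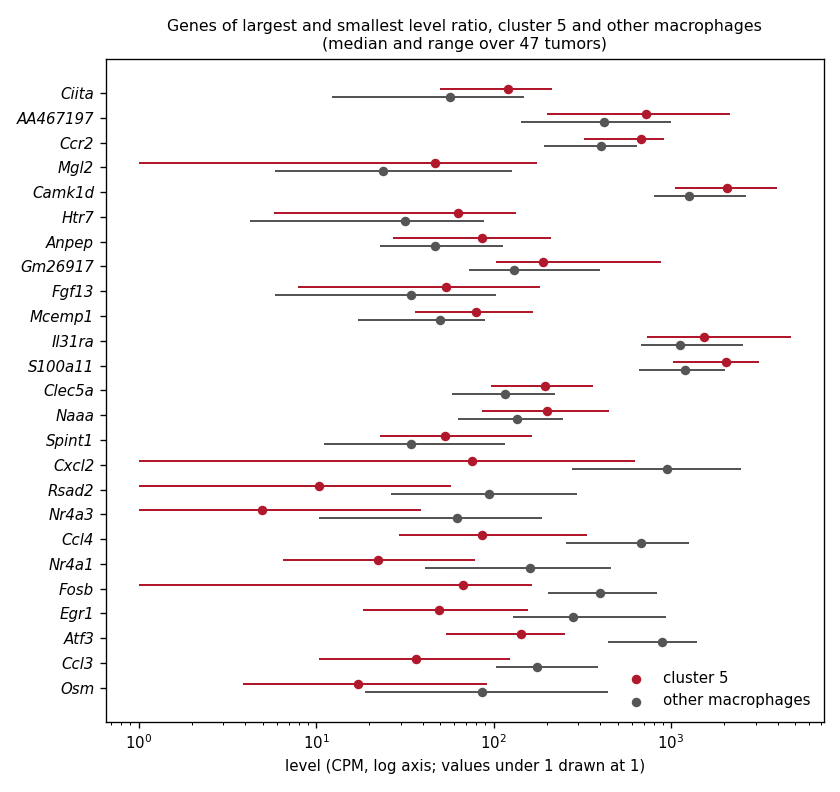
Levels of the genes with the largest and smallest ratio of cluster 5 to the other macrophages, in CPM on a log axis. Points are medians and lines the range over 47 tumors, and genes carried by very few cells (Igkv6-25, Igkc, Hbb-bs, Hba-a1 and Hba-a2) were left out after their values were seen. The lower 10 genes, from Cxcl2 to Osm, are further apart than the upper ones.

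The first comparison was whether the cluster was larger in responder tumors or after aPD1. As a share of macrophages, it ran from 8.18 to 27.9% (median 18.3%) in responder isotype and from 11.0 to 24.9% (median 17.1%) in responder aPD1 tumors. In non-responder strains it ran from 10.53 to 25.2% (median 18.99%) with isotype and from 9.58 to 23.5% (median 19.02%) with aPD1. All 4 groups overlapped almost fully. The mean of responder minus non-responder strains was 0.480 percentage points with isotype and −0.855 with aPD1, against average SDs within groups of 6.03 and 3.99.

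After aPD1 the mean share changed by −1.88 points in responder and −0.544 points in non-responder strains, and it was higher in 5 of 10 and 4 of 9 pairs of tumors from the same pool and strain. These treatment effects differed by −1.34 points over the pairs, with an average SD of 6.47. The responder strains moved in opposite directions: the mean went from 12.8 to 19.1% in CC001, from 22.9 to 13.7% in CC075 and from 22.2 to 16.8% in CC002. The responder change was therefore −7.29 points without CC001 and 1.24 points without CC075, and the class differences also changed sign when 1 strain was left out (−1.33 to 4.36 with isotype and −2.38 to 0.449 with aPD1). No p is given for shares, because Ccr2 and Ciita, which are among the 10 genes of highest ratio, themselves differed between classes.

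**Figure D2:**
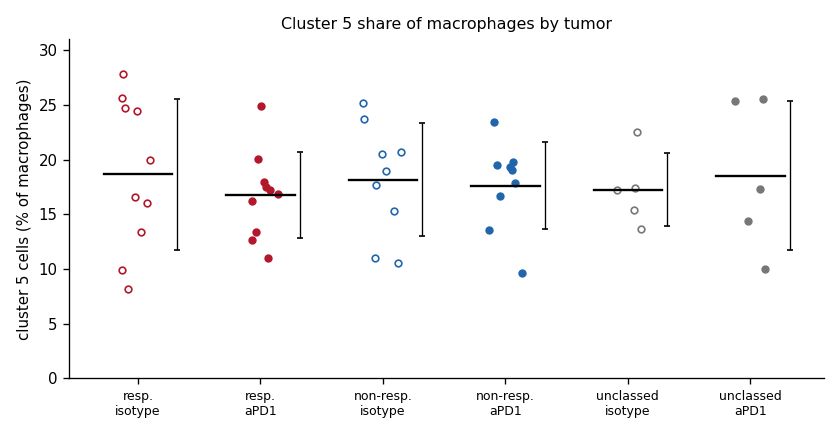
Cluster 5 cells as a percent of macrophages in each tumor, by class and treatment (open circles isotype, filled aPD1). Horizontal lines are means and bars SD, and all groups overlap, with responder isotype tumors spread most widely, from 8.18 to 27.9%.

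The next comparison was which genes differed in these cells between responder and non-responder tumors 48 h after aPD1. Of 8169 genes tested over the 38 tumors of classed strains, 384 passed (4.7% of genes, edgeR quasi-likelihood test, adjusted p under 0.05), 261 higher (3.2%) and 123 lower (1.51%) in responder strains. With the pool as a block, which keeps tumors of the same library together, 652 passed (7.98%; 417 higher, 5.1%, and 235 lower, 2.88%), and with library size alone as the scaling 212 were higher and 199 lower. Leaving out 1 strain moved the count from 172 without CC075 to 635 without CC001, with 189 without CC079 and 237 without CC002. The count was 125 in pools 1 to 5 alone, 36 in pools 8 to 12 alone and 12 with counts summed per strain and treatment. Pools 1 to 5 hold no CC036 or CC075 tumors and pools 8 to 12 no CC079 tumors, so the set of pools and the strains in it cannot be told apart.

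IFN-γ response genes were higher as a group. Of 33 listed genes tested, 25 passed and all 25 were higher in responder tumors, with a median log2 fold change of 1.06 against −0.0016 over all genes tested, and the other 8 also had positive values. The count was 13 of 32 without CC002, 18 without CC079, 19 without CC080, 10 in pools 1 to 5 alone, 3 in pools 8 to 12 alone and 2 of 35 with counts summed per strain and treatment, each with every member positive. Summed over the list, responder aPD1 tumors held 4037 to 11050 CPM (median 7538) and non-responder aPD1 tumors 1939.5 to 4156 CPM (median 3231). Thus 9 of 10 responder tumors exceeded the highest non-responder tumor, and the means differed 2.24-fold.

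Cd274, which encodes PD-L1, had 67.5 to 366 CPM (median 237) in responder and 34.3 to 152 CPM (median 102) in non-responder aPD1 tumors, a log2 fold change of 1.29 (SE 0.32, adjusted p = 0.011). Il18bp, the decoy of IL-18, had 30.2 to 101 CPM (median 81.7) against 11.2 to 33.3 CPM (median 20.1), with a log2 fold change of 1.85. The groups overlapped for both genes, but for Il18bp only the lowest responder tumor fell below the highest non-responder tumor.

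The guanylate-binding protein genes, which attack intracellular microbes, were higher together: Gbp2 by 1.33, Gbp4 by 1.62, Gbp5 by 1.63 and Gbp8 by 1.41 on the log2 scale. The immunity-related GTPase genes Igtp (1.11) and Iigp1 (1.81), the Fc receptor gene Fcgr4 (1.202) and the transcription factor genes Irf1 (0.79) and Irf8 (0.50) were also higher. Ccl5, a T cell chemokine, had 293 to 2466 CPM (median 653) against 85.8 to 325 CPM (median 166), a log2 fold change of 2.24 (SE 0.41, adjusted p = 0.000606). Gbp2b had the largest value, 4.05 (SE 0.73), and it was highest in 1 strain: its mean was 153 CPM in CC002 aPD1 tumors and 105 CPM in CC002 isotype tumors. The other aPD1 means were 30.0 CPM in CC075, 10.1 CPM in CC001 and 1.81 to 5.13 CPM in the non-responder strains, and 9 of 10 responder tumors lay above all non-responder ones. Gbp and GTPase genes are families of related members. Whether reads were split between members differently in hosts of different alleles was not tested.

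**Figure D3:**
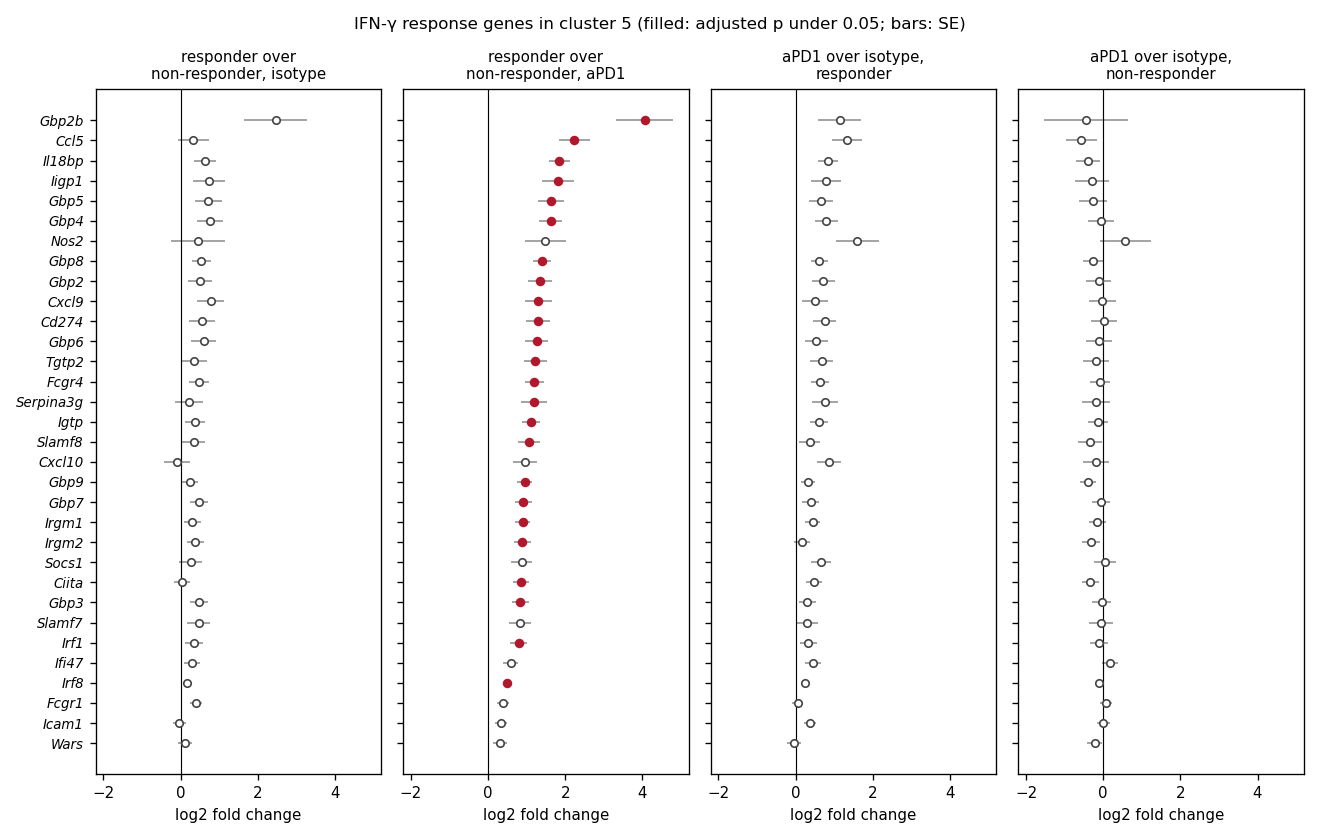
Log2 fold changes of 32 of the 33 IFN-γ response genes tested in cluster 5, in 4 comparisons (panels). Points are edgeR estimates, bars SE, and filled points have an adjusted p under 0.05. The 24 filled points all lie in the panel of responder over non-responder tumors with aPD1.

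The promoters of 3 of these genes are shown because each holds a short motif of the interferon pathway. They are the 250 bases before the RefSeq start in GRCm38.p6, read 5′ to 3′ along the gene, with matches in capitals. The searched motifs were GAS (TTCNNNGAA) and the IRF half-site pair (GAAANNGAA), on both strands. In Cxcl9 (chr5:92328080-92328329, minus strand) the IRF match begins 175 bases before the start, and in Cd274 (chr19:29367188-29367437, plus strand) 76 bases before. In Igtp (chr11:58199306-58199555, plus strand) a GAS match begins 45 and an IRF match 34 bases before the start.
Cxcl9: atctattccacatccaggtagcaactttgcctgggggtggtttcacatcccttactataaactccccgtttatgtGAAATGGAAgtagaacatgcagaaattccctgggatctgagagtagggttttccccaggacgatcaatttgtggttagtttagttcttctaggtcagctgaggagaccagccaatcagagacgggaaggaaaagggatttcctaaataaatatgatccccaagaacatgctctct
Cd274: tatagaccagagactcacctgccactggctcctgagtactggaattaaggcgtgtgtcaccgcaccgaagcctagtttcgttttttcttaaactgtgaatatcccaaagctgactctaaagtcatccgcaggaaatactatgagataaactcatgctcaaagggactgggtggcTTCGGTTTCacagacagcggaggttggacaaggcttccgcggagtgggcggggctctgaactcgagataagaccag
Igtp: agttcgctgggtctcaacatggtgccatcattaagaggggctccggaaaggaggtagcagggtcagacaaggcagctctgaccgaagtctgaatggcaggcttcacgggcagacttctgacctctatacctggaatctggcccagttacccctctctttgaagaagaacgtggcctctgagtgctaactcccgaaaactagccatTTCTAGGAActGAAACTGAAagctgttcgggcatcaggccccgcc

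Windows of 300 bases around starts were searched, and a gene counted as matched if any of its starts did. Of 27025 genes, GAS matched in 9.55% and IRF in 9.76%. Among the 6570 of 8169 tested genes with a promoter, GAS matched in 8.25% and IRF in 9.54%. Among the 207 of 261 higher genes with a promoter in the table, IRF matched in 24.2% and GAS in 12.6%. Among the 88 of 123 lower genes, IRF matched in 7.95% and GAS in 12.5%. Of the 25 IFN-γ genes that passed, 17 had a promoter and 13 of those held IRF and 8 held GAS. These 17 are also among the 207 higher genes. Of all 33 IFN-γ genes tested, called or not, 23 had a promoter, and 15 of those held IRF and 10 held GAS. The list was made of interferon targets, so its motif shares say nothing on the class difference. A match is a run of letters and not a measured binding site.

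Antigen presentation genes were higher too. H2-Eb1, the beta chain of MHC class II I-E, had 3601 to 6885 CPM (median 4877) in responder and 1605 to 2677 CPM (median 2238) in non-responder aPD1 tumors. The groups did not overlap (log2 fold change 1.18, SE 0.15, adjusted p = 1.1e-06), and H2-Eb1 was also higher with isotype. Of 8 MHC class II genes tested, 5 were higher and 1 lower (median 0.57), against 3.2% and 1.51% of all genes. Beside H2-Eb1, H2-Aa was higher by 0.68, H2-Ab1 by 0.72, H2-DMb1 by 0.47 and Ciita by 0.84 (SE 0.20, adjusted p = 0.0091) on the log2 scale. H2-DMb1 passed in only 3 of 16 alternative fits. H2-DMb2, a peptide-exchange chain, went the other way, with 16.1 to 40.0 against 43.8 to 168.5 CPM. Since MHC genes differ strongly between mouse strains, expression and the mapping of allele reads to the B6 genome cannot be told apart there.

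Of 20 MHC class I and peptide loading genes, 12 were higher and none lower (median 0.50), against 3.2% and 1.51% of all genes. These included the peptide transporter genes Tap1 (0.96) and Tap2 (0.80), the immunoproteasome genes Psmb8 (0.54) and Psmb9 (0.64), the class I regulator Nlrc5 (0.79) and B2m (0.44), the shared light chain. Of 18 type I interferon genes, 5 were higher and none lower (median 0.45, beside the same shares of all genes), among them Ifit1 (0.71), Ifit2 (0.91) and Oasl1 (1.06). Ifit1 passed in only 6 of 16 alternative fits. Ifi44, at 2.73, was highest in CC002, and without that strain its value was 1.03 and did not pass.

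Of the 5 markers, 3 differed between classes after aPD1, beside 4.7% of all genes. Ccr2 had 457 to 614 CPM (median 570) in responder and 678 to 893 CPM (median 755) in non-responder tumors, without overlap (log2 fold change −0.43, SE 0.11, adjusted p = 0.0169). Cxcl9 had 907 to 3069 CPM (median 1769) against 230 to 1290 CPM (median 579), a log2 fold change of 1.30 (SE 0.35, adjusted p = 0.0197). C3 had 85.2 to 321 CPM (median 193) against 77.0 to 147 CPM (median 109), a log2 fold change of 0.90 (SE 0.23, adjusted p = 0.0161). These calls did not hold in every alternative fit. Of 16 alternatives, Ccr2 passed in 10 (highest adjusted p = 0.386), Cxcl9 in 11 (0.484) and C3 in 11 (0.335), each with the same sign throughout. None of the 3 passed in pools 8 to 12 alone, without CC079, without CC080 or with counts summed per strain and treatment. Among aPD1 tumors, Ccr2 was thus lower and Cxcl9 and C3 higher in responder strains.

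Clec5a had 96.6 to 249 CPM against 129 to 361 CPM (log2 fold change −0.14, SE 0.18, adjusted p = 0.76) and Tarm1 44.2 to 91.1 against 38.4 to 66.95 CPM (0.34, SE 0.20, adjusted p = 0.376). Neither passed. In the unclassed tumors Cxcl9 ran from 897 to 1915 CPM with isotype (n = 5) and from 1176 to 2328 CPM with aPD1 (n = 4), in the range of responder tumors. Their C3 ran from 178 to 236 CPM and from 171 to 356.5 CPM.

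**Figure D4:**
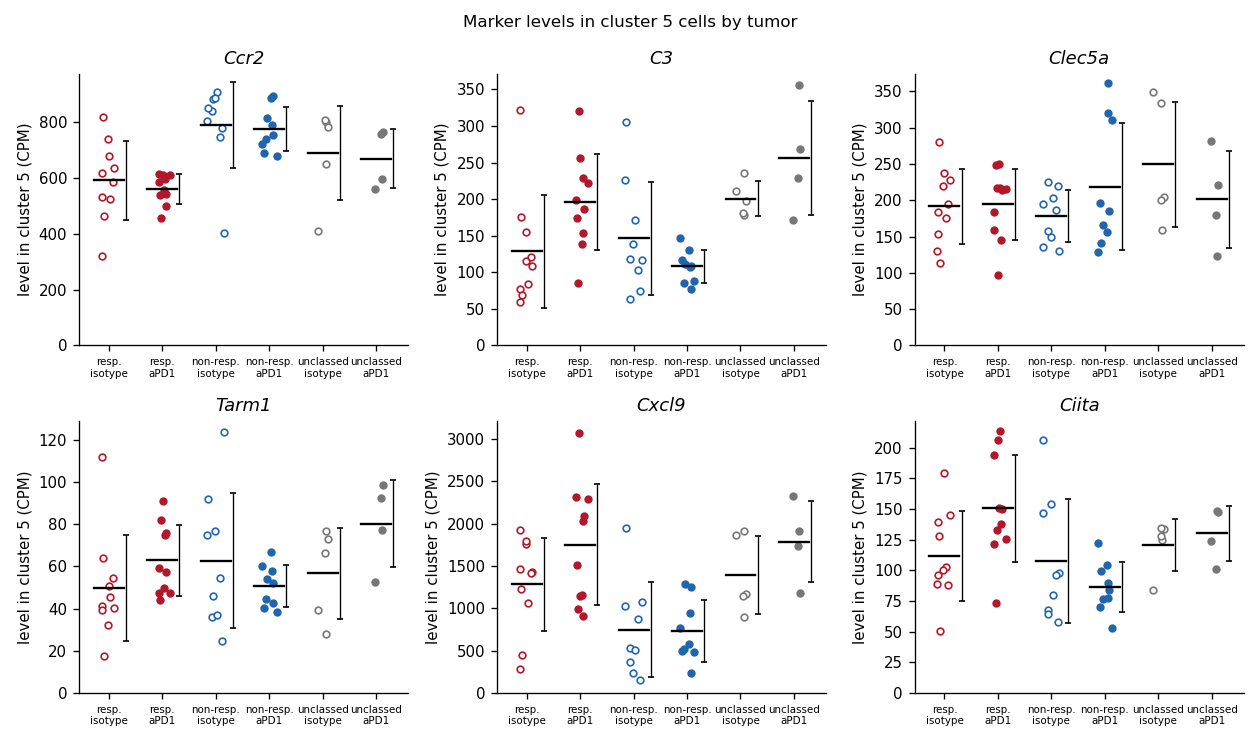
Levels of the 5 markers and Ciita in cluster 5 cells of each tumor with at least 20 such cells, in CPM, by class and treatment. Circles are tumors (open isotype, filled aPD1), horizontal lines means and bars SD. With aPD1, every responder tumor lies below every non-responder tumor for Ccr2, while the groups overlap for the other 5 genes.

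Outside the interferon lists, Ly6i, a GPI-anchored surface protein gene, had 249 to 2633 CPM (median 671) in responder and 57.1 to 163 CPM (median 109) in non-responder aPD1 tumors, with no overlap. Its log2 fold change was 3.03 (SE 0.40, adjusted p = 3.48e-06). Ly6c1, which lies close by on chromosome 15 (Ly6i from 74979534 and Ly6c1 from 75044018), went the other way. As with the MHC genes, expression and the mapping of allele reads cannot be told apart for Ly6i and Ly6c1. AW112010, an interferon-inducible transcript, had 1003 to 4232 against 275 to 991 CPM and a log2 fold change of 2.00 (SE 0.29, adjusted p = 3.91e-05). Cd38, an NAD-consuming ectoenzyme gene, was higher by 1.94 and Spon1, a matrix protein gene, by 2.06 (SE 0.31). Lyz1 (3.29), a lysozyme gene, was highest in CC002 among the classed strains, and without that strain its value was 0.73 and did not pass. Mid1 (1.95), a ubiquitin ligase gene, was at −0.41 without CC001.

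Other lists are set beside the 4.7% of all genes called. Cytokine receptor and signalling genes had 5 of 20 higher, among them Il15 (1.09) and its receptor gene Il15ra (1.30), Csf3r (1.07) and Il2rg (0.65). In the fit without blocks, the itaconate enzyme gene Acod1 (1.203) was the only call of 7 arginine and itaconate genes, Vegfa (0.98), an angiogenic factor gene, of 16 lipid and matrix genes, and the decoy receptor gene Il1r2 (0.97) of 14 inflammatory genes. The hypoxia-linked genes Ndrg1 (1.82) and Bnip3 (0.57) were higher among 19 glycolysis and hypoxia genes. Clec12a (0.45) and Pirb (0.46), both inhibitory receptor genes, were higher among 23 lectins and paired receptors, C3 was the only call of 12 complement genes, and 3 of 20 chemokine and receptor genes were higher and 1 lower. Clec12a passed in only 4 of 16 alternative fits. With 1 or 2 calls, 6 of these lists hold too few to be read as a result about the list. With the pool as a block, where 7.98% of all genes passed, 2 arginine and itaconate genes were higher, with Nos2 added. Of the inflammatory genes 3 were higher (Il27, Ptgs2 and Nfkbiz), and Il1r2 no longer passed. Of the lipid and matrix genes 1 was higher and 3 were lower (Spp1, Trem2 and Lpl). The lectins and paired receptors had 3 higher and 1 lower, with Clec4a1 and Trem2 added, and the chemokines and receptors 4 higher and 2 lower. These genes are named after their values were seen.

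Among the lower genes, Fn1, the fibronectin gene, had a mean of 922 CPM in responder against 1934 CPM in non-responder aPD1 tumors (log2 fold change −1.03). It and Ccr2 were the only calls of 14 monocyte genes without the block, beside 1.51% of all genes lower. With the block 1 more, Ifitm6, was higher, beside 5.1% of all genes. The fusion receptor gene Dcstamp (−1.85), the leukotriene synthase gene Ltc4s (−1.78) and the phosphodiesterase gene Pde4d (−1.17) were also lower. Without CC079, Ltc4s was at −0.37 and did not pass. Ly6c1 (−3.96) separated by strain, with high levels in CC079, CC080 and CC007 hosts alone. Without the block, no call was made by edgeR among 12 macrophage identity, 5 resident macrophage, 16 cell cycle or 12 immediate early genes in this comparison, whose medians were 0.13, −0.48, −0.38 and 0.21. With the pool as a block, 1 of the macrophage identity genes was called higher, the Fc receptor gene Fcgr1, named here after its value was seen.

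Summed levels of some marker lists of other cell types also differed by class in cluster 5 of aPD1 tumors. Summed granulocyte markers ran from 36.2 to 112 CPM (median 68.1) in responder and from 22.5 to 66.5 CPM (median 30.1) in non-responder tumors. Dendritic cell markers ran from 5.496 to 39.4 (median 23.01) against 3.97 to 15.6 CPM (median 11.3), and MC38 and epithelial markers from 2.29 to 45.5 (median 18.6) against 30.1 to 74.8 CPM (median 56.9). T and NK cell markers stayed between 3.54 and 14.9 and between 1.32 and 11.8 CPM. The granulocyte list had 1 call of 2 genes tested, Csf3r, also a cytokine receptor list member, beside 4.7% of all genes. Of the MC38 and epithelial list only Cdh1 was tested, and it was lower (log2 fold change −1.32). The 1 member of that list at 20 CPM or more had a ratio of 2.03 to the other macrophages. Single calls cannot tell cells of another type from expression by cluster 5 cells. The part of these markers in the class differences was not tested.

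**Figure D5:**
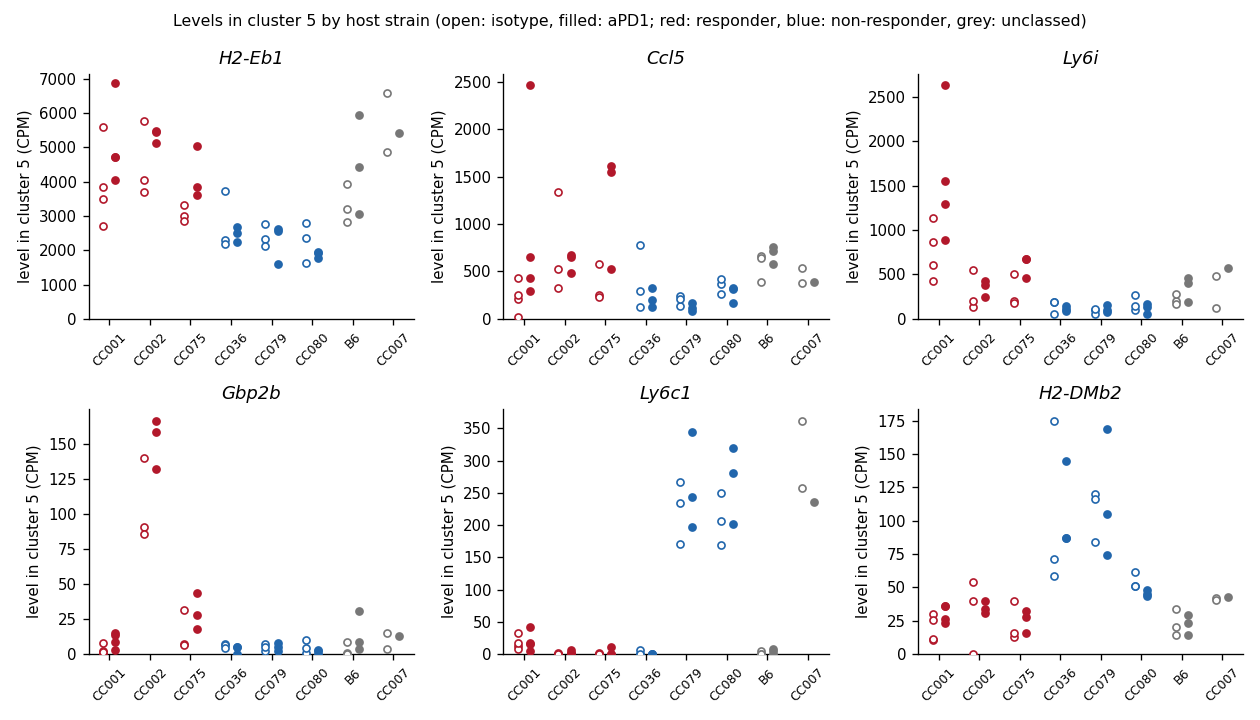
Levels of 6 genes in cluster 5 cells of each tumor by host strain, in CPM (open circles isotype, filled aPD1, red responder, blue non-responder, grey unclassed). With aPD1, H2-Eb1 and Ly6i are higher in the 3 responder strains, Gbp2b stands out in CC002, and Ly6c1 is high in CC079, CC080 and CC007 hosts alone.

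Between the classes in isotype tumors, 23 of 8169 genes passed (0.282%), 11 higher (0.135%) and 12 lower (0.147%) in responder strains, and with the pool as a block 17 were higher and 17 lower. None of the 33 IFN-γ genes passed (edgeR), and their median was 0.39, with positive values for 31. Summed over the list, responder isotype tumors had 2006 to 7432 CPM (median 5152) and non-responder ones 1751 to 6478 CPM (median 2613). The ranges overlapped nearly fully, and the means differed 1.34-fold. The highest non-responder sums were in CC080 of pool 4 (6478 CPM) and CC036 of pool 8 (5801 CPM, 67 cells). The next was 4521 CPM in CC036 of pool 10. H2-Eb1 (0.64, SE 0.15, adjusted p = 0.0308), Ly6i (1.85), Ndrg1 (1.72), Spon1 (1.42) and the GTPase regulator gene Rgs1 (0.93) were higher. Without CC001, Ly6i was at 1.02 and did not pass. H2-DMb2 (−1.73), Dcstamp (−1.68), the oxysterol receptor gene Gpr183 (−0.77) and the lectin gene Clec4a3 (−0.55) were lower. Of the 17 genes named and called with isotype, all 17 lost their call with counts summed per strain and treatment, 13 without CC079 and 12 without CC075. No marker passed by edgeR: Ccr2 had a log2 fold change of −0.40 (adjusted p = 0.181; it passed by DESeq2, adjusted p = 0.020, and without CC036), Cxcl9 one of 0.78 (adjusted p = 0.724) and C3 one of −0.35 (adjusted p = 0.929).

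The effect of aPD1 itself was compared within each class. In responder strains no gene passed in the fit without blocks (0.0% of 8169, edgeR), with 759 genes at an unadjusted p under 0.05 and 4 passing by DESeq2. With each pair of pool and strain as a block, which compares tumors of the same strain and library, 188 genes passed (2.3%), 140 higher (1.71%) and 48 lower (0.588%) after aPD1. With counts summed per strain and treatment none passed by edgeR, with 508 genes at an unadjusted p under 0.05. In non-responder strains no gene passed by edgeR with or without the block, with 154 genes at an unadjusted p under 0.05 without it and none passing by DESeq2, and 1 passed without the filter on low counts. The difference of the treatment effects between classes gave no call by edgeR without a block, with 563 genes at an unadjusted p under 0.05, and none by DESeq2. With the pool alone as a block this difference gave no call either, and it was not tested with blocks of pool and strain. It gave 1 call by edgeR with library size alone as the scaling and 1 without CC001. So, apart from these, the classes were not shown to differ in the effect of aPD1.

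The blocked calls in responder strains held 11 of 33 IFN-γ genes, all higher, beside 1.71% of all genes. They also held 7 of 20 MHC class I and loading genes and 4 of 8 MHC class II genes. Of the type I interferon genes 4 of 18 were among them, and of the cytokine receptor and signalling genes 3 of 20. All of these were higher, and every other list held at most 2 calls. Cd274 had 35.9 to 292 CPM (median 141) with isotype and 67.5 to 366 CPM (median 237) with aPD1, and it was higher in 10 of 10 pairs (log2 fold change 0.85, adjusted p = 0.00778 in edgeR). Nos2, the inducible nitric oxide synthase gene, had 0 to 41.9 CPM (median 7.32) and 11.3 to 107 CPM (median 41.1), also higher in 10 of 10 pairs (1.96). Ccl5 (1.32) was higher in 9 of 10 pairs. The unpaired groups overlapped for each of these genes.

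Other blocked calls included Acod1, with 3.86 to 154 CPM (median 59.4) against 95.1 to 236 CPM (median 131), and Vegfa (log2 fold change 0.74), each higher in 10 of 10 pairs. C3 was higher in 9 of 10 pairs with a log2 fold change of 0.80 (blocked adjusted p = 0.031, unblocked 0.248). H2-Eb1 (0.41) was higher in 9 of 10 pairs and Il1b (0.94), the inflammatory cytokine gene, in 8. Fkbp5, a glucocorticoid target named here after its values were seen, was lower, with a log2 fold change of −1.04 and a higher value in 1 of 10 pairs.

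Within pairs the summed IFN-γ list was higher with aPD1 in 9 of 10 responder pairs (ratios 0.996 to 2.46, median 1.52) and in 4 of 9 non-responder pairs (0.299 to 1.52, median 0.891). The ratio ranges overlapped. Median log2 fold changes after aPD1 were 0.61 for IFN-γ genes, 0.39 for type I interferon genes, 0.35 for MHC class II and 0.31 for MHC class I genes in responder strains. In non-responder strains they were −0.13, −0.05, −0.14 and −0.06. For C3 the treatment effects differed by 1.25 between classes (SE 0.34, edgeR adjusted p = 0.373), and for Cxcl9 by 0.52, neither of which passed.

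At the level of single cells thinned to 1000 UMIs, Cxcl9 had a UMI in 24.3 to 54.2% of cluster 5 cells (median 41.8%) in responder aPD1 tumors and in 6.33 to 30.8% (median 18.8%) in non-responder aPD1 tumors. Spp1 had one in 10.6 to 47.01% (median 25.2%) and in 19.4 to 70.7% (median 53.1%). Thinned T/NK cells, as a background, had Spp1 in 7.65% and Cxcl9 in 2.02%. In isotype tumors, Cxcl9 had a UMI in 6.86 to 50% of cells (median 33.1%) in responder and 7.14 to 38.1% (median 15.3%) in non-responder strains. Spp1 had one there in 7.69 to 48.3% and 25.2 to 53.6%, with a median of 38.5% in each class. The groups overlapped for both genes under both treatments, and unthinned cells had median depths per tumor of 1933 to 3515.5 UMIs in responder and 2143 to 4952 UMIs in non-responder aPD1 tumors.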

How the data were processed

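The authors deposited raw UMI counts per gene and cell as a sparse table, made with Cell Ranger from 5′ single-cell libraries, with Seurat 5.0.1 also named in the submitters' notes. The deposited table of cells gives each cell's library, strain, treatment, hashtag and cluster number. The members and gene lists were chosen with earlier results of these data known. Macrophages were clusters 2, 4, 5, 9, 15, 17, 19, 21, 26 and 27. Counts of cluster 5 cells were summed per tumor (library, strain and treatment), and tumors with at least 20 cells were used. Depth per tumor is given in the report. Intervals and tests cover the spread between tumors, which came from separate animals except that 1 animal name stands on 2 CC080 tumors.

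Genes were tested with edgeR 4.0.16 (R 4.3.3, limma 3.58.1; quasi-likelihood test, TMM scaling, filterByExpr) over 38 tumors in 5 comparisons, with Benjamini-Hochberg adjustment over 8169 genes and a threshold of 0.05. The SE is the log2 fold change divided by the root of its F statistic. DESeq2 1.42.0, library size scaling, no filter, blocks, leaving out each strain, sets of pools, sums per strain and a higher cell minimum were alternatives, and 1 more (without the CC080 isotype tumor of pool 4) was chosen after seeing the data. The block was the pool, and for aPD1 against isotype within a class the pool and strain. The fit was tested on simulated data. Pairs of tumors from 1 pool and strain shared a library by the labels. Their deviations from the group means correlated by 0.0257 to 0.493 (median 0.238), above 0.1 in 17 of 19 pairs.

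Named genes were the 12 of largest change in each direction of at least 20 CPM among those past the threshold, the listed genes and the markers. Predicted genes without a name were skipped (13 with aPD1 and 3 with isotype), and AW112010 was kept, a reading made after values were seen. Defining genes were the 20 highest and 10 lowest ratios to the other macrophages, of at least 50 CPM. List members were compared with other clusters at 20 CPM or more. Cells of at least 1000 UMIs were thinned to 1000. No doublet caller was run. Promoters were read from RefSeq tables of GRCm38.p6 and gene positions from GENCODE vM21. One gene of the IFN-γ list counts in the totals but is not reported by name here.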

Additional observations from a re-analysis of the deposited data

Results flagged for a closer look

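Of 246 groups of tumors examined over 40 of the named genes and the share, 24 held a tumor whose gap to its nearest neighbour was large for the range of the group. Chance gives about 1 in 20. All values are CPM in cluster 5, with the next tumor's level in brackets. No share of macrophages was among them.

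The CC002 isotype tumor of pool 12, with the fewest cluster 5 cells of the classed tumors (32 cells, 71583 UMIs), gave 5: Bcar3 at 0 (14.03), H2-DMb2 at 0 (11.1), Mid1 at 0 (12.4), Vill at 0 (7.12) and Noc2l at 182 (121). The CC036 isotype tumor of pool 8 (67 cells, 153582 UMIs) gave 4: Ccr2 at 404 (746), Ifi44 at 0 (6.31), Spon1 at 0 (8.66) and Sulf2 at 26.04 (71.0). The CC075 aPD1 tumor of pool 11 gave 3: Dcstamp at 0 (5.91), Ltc4s at 0 (3.37) and Ppfia4 at 13.8 (22.5).

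Ccl5 was at 19.3 (214) in the CC001 isotype tumor of pool 1 and Clec4a3 at 112 (140) in the CC075 isotype tumor of pool 9. Dpys was at 0 (3.73) in the CC002 aPD1 tumor of pool 3 and Trim5 at 7.46 (18.7) in that of pool 5. In non-responder aPD1 tumors, Cdh1 was at 22.3 (39.8) in CC080 of pool 3, Lyz1 at 39.8 (6.55) in CC080 of pool 4, Ndrg1 at 73.6 (30.0) in CC036 of pool 10 and Ifi44 at 0 (2.69) in CC036 of pool 9.

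Among unclassed tumors, the B6 isotype tumor of pool 7 had Fn1 at 738 (1398) and Gpr183 at 19.7 (62.6). Ndrg1 was at 13.9 (53.5) in the B6 isotype tumor of pool 6, and Lyz1 at 184 (6.87) in the CC007 aPD1 tumor of pool 7.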

How the results depend on the processing

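Under each alternative run, the share differences moved by less than the SD of single tumors, which is wider than the error of a group mean. The differences did not keep their signs. When 1 strain was left out, they ran from −1.33 to 4.36 points between classes with isotype, −2.38 to 0.449 with aPD1, −7.29 to 1.24 for aPD1 in responder strains, −1.63 to 0.338 in non-responder strains and −6.75 to 1.78 for the difference of these effects. Counts of genes past the threshold moved more. Between classes with aPD1 (384 genes), the count was 652 with the pool as a block, 125 in pools 1 to 5, 36 in pools 8 to 12, 12 with counts summed per strain and treatment, and 172 to 635 when 1 strain was left out. With isotype (23 genes), it was 47 without the filter, 7 in pools 8 to 12, 3 with counts summed and 14 to 49 when 1 strain was left out. For aPD1 against isotype in responder strains (0 genes), it was 188 with the block, 4 with DESeq2, 2 without the filter and 0 with counts summed, and in non-responder strains 1 without the filter. The difference of the treatment effects gave 1 gene with library size scaling and 0 to 1 when 1 strain was left out. With the block, the genes higher with isotype went from 11 to 17, and list counts with the block are given in part in the report. The fits within sets of pools and of summed counts hold fewer libraries, and each set of pools also lacks some strains. For the other changes the cause was not tested.

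The values that changed sign were not called, except Mid1 between classes with aPD1 (1.95), which ran from −0.41 to 2.37 without 1 strain. Without 1 strain, the log2 fold change of Clec5a between classes with aPD1 ran from −0.33 to 0.14. For aPD1 in responder strains, Ccr2 was 0.069 in pools 8 to 12, and Clec5a was −0.0047 with library size scaling, −0.14 in pools 8 to 12, −0.055 with counts summed and −0.14 to 0.17 without 1 strain. In non-responder strains, Ccr2 was 0.10 in pools 8 to 12 and −0.10 to 0.069 without 1 strain, and Tarm1 −0.43 to 0.0022. There Cxcl9 was 0.23 with the block, 0.55 in pools 8 to 12, 0.14 without the tumors of 1 animal name, 0.021 with counts summed, 0.30 without the CC080 isotype tumor of pool 4 and −0.37 to 0.55 without 1 strain. For the difference of the effects, Ccr2 was −0.13 to 0.041 without 1 strain, and Cxcl9 −0.040 to 0.88 without 1 strain and −0.21 in pools 8 to 12.

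Of the 81 genes named and called between classes with aPD1, 75 lost their call with counts summed per strain and treatment, 65 in pools 8 to 12, 48 in pools 1 to 5, 32 without CC079, 30 without CC002 and 27 without CC075. With DESeq2 3 did, and with the block 3.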
